A study of Mus musculus with 8 samples.

Results

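Transcripts of 10 genes used as readouts of the transcriptional co-activator YAP were followed while c-Src was switched on in mouse embryonic fibroblasts: the CCN family genes Cyr61, Ctgf, Nov, Wisp1 and Wisp2, and the partner genes Ankrd1, Amotl2, Lats2, Tead1 and Axl. They are taken by name, and the choice was made with earlier results of these data known. The array carried 14 probes for them, out of 55681 probes that are not controls. All 14 passed the filter on dim probes, and all 10 genes were among the 20839 genes tested. Nov passed it only through 24 and 72 h, and the dimmest Tead1 probe only through 0 h. All cells were Csk-/- fibroblasts transfected with pBKT2-c-Src, a vector that expresses c-Src under doxycycline, and were incubated with doxycycline at 1 µg/ml. The groups were 0, 6, 24 and 72 h of induction, with 2 arrays each and 8 in all. Csk is the kinase that restrains Src family kinases, and it was deleted at every time, 0 h included. The labels give no cells with Csk, no cells without the vector, and no uninduced cells kept for the later times. Time in doxycycline, time in culture and the level of c-Src therefore cannot be told apart. The labels state that samples were run in duplicate and not that these came from separate cultures, so p-values measure the spread between arrays, which may be technical.

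YAP and its paralog TAZ are co-activators that the Hippo kinases LATS1 and LATS2 phosphorylate and hold in the cytoplasm. In the nucleus they bind the TEAD transcription factors, which recognise the sequence GGAATG and raise genes of cell growth, matrix and adhesion. The CCN genes encode secreted matricellular proteins that bind integrins and growth factors, and Cyr61 and Ctgf are textbook YAP targets in fibroblasts, where spreading on a stiff matrix raises both. Amotl2 and Lats2 are YAP targets that restrain YAP in turn, Axl encodes a receptor tyrosine kinase, and Ankrd1 encodes a nuclear and sarcomeric ankyrin repeat protein.

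Windows of 250 bases before an annotated transcript start were at hand for 5 of the 10 genes, 6 windows in all (RefSeq, GRCm38.p6). The 4 windows that hold the TEAD sequence are printed here, 5′ to 3′ on the gene's strand, because the TEAD factors that YAP binds recognise it. Capitals mark GGAATG, or CATTCC where the match lies on the opposite strand. Ankrd1 is chr19:36119845-36120094 on the minus strand, Cyr61 is chr3:145649986-145650235 on the minus strand, Axl is chr7:25788734-25788983 on the minus strand and Amotl2 is chr9:102717554-102717803 on the plus strand.
Ankrd1: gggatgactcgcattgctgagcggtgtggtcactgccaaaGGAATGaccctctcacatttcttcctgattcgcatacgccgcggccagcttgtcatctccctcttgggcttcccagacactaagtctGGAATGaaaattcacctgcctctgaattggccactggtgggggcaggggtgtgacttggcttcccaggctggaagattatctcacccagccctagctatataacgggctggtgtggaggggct
Cyr61: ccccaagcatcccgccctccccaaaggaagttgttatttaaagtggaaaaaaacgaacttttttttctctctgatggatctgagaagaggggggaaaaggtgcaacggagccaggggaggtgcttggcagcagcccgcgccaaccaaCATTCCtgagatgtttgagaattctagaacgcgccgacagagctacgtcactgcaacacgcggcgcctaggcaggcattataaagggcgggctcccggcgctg
Axl: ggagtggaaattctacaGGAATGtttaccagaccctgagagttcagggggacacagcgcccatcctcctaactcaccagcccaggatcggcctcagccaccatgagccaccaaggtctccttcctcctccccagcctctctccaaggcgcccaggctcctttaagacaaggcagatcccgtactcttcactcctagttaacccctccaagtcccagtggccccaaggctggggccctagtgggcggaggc
Amotl2: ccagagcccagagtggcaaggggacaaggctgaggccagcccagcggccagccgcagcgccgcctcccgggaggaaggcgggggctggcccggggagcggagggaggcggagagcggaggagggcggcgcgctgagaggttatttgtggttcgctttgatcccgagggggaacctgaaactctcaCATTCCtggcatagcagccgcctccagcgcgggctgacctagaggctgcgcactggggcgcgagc

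Ankrd1 held 2 matches, 210 to 205 and 123 to 118 bases before the start. The match of Cyr61 lay 103 to 98 bases before the start and that of Amotl2 65 to 60 bases before it, both on the opposite strand, and that of Axl 233 to 228 bases before it. The 2 windows of Lats2 held none. On either strand, GGAATG was present in 12.6% of 32851 windows of the same length. The AP-1 motif TGANTCA, searched on both strands, was in 0 of the 6 windows and in 6.75% of all windows, and the CArG box of serum response factor was in 0 of the 6 and in 1.47%. Windows for Ctgf, Nov, Wisp1, Wisp2 and Tead1 were not used here. A match is a string of letters and not a measured site, and the genes with a match did not share a direction: Ankrd1, Cyr61 and Axl rose and Amotl2 fell.

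The scanner software put 49.9% to 54.7% of an array's spots well above background and 0 as saturated, and replicate arrays correlated across genes at 0.9964 to 0.9975. Values below are scaled signals, that is, intensities multiplied so that every array has the same 75th percentile. They describe a probe across arrays and cannot rank genes against each other. Src lay at 149 and 166 at 0 h and between 3081 and 4276 on the 6 induced arrays, 26.9-fold higher at 6 h, 23.8-fold at 24 h and 19.6-fold at 72 h. No array showed Csk well above background. Of 10 fibroblast markers 9 were above background on all arrays (Thy1 on none), and their summed signal was 374498 to 403274 at 0 h and 311081 to 314607 at 72 h. Of these 9, Vim rose and 8 fell at 72 h, where 27.5% of all genes rose and 24.6% fell. Of the markers of other cells, some passed background on no array (Epcam, Cdh1, Cldn4 and Ocln of 8 epithelial, Ptprc, Adgre1 and Lyz2 of 7 macrophage, Cdh5, Emcn and Cldn5 of 7 endothelial, Myod1, Myog, Ckm, Myh3 and Actn2 of 9 muscle, and Adipoq, Plin1 and Lep of 6 adipocyte markers) and others were expressed and changed. The 9 muscle markers, listed because Ankrd1 is a muscle gene, summed to 4455 to 4963 at 0 h, 5288 to 5457 at 6 h, 7779 to 8978 at 24 h and 5385 to 5548 at 72 h, and Tnnt2 rose at 24 h (log2 difference 0.85, adjusted p 0.00163). Of 3 muscle markers tested, 1 rose at 24 h, where 21.4% of all genes rose, and 0 were called at 6 or 72 h. The 8 epithelial markers summed to 1240 to 1359 at 0 h and 1887 to 1943 at 72 h, and the 6 adipocyte markers to 365 to 369 and 739 to 769. On the log2 scale, at 72 h Krt8 and Krt18 rose (0.93 and 0.34) and Krt14 fell (-1.93), and Fabp4 rose (1.91) and Cebpa and Pparg fell (-1.37 and -0.45). Macrophage and endothelial sums lay within 6293 to 6955 and 869 to 960. Of 4 macrophage markers tested, 2, 3 and 2 rose at 6, 24 and 72 h, where 10.3%, 21.4% and 27.5% of all genes rose. Among them were Csf1r (0.88 at 6 h, adjusted p 0.00258) and Cd68 (at least 2.92-fold at 72 h, adjusted p 0.000133). Of 4 endothelial markers Tek fell (at least 2.71-fold at 72 h, adjusted p 0.00137), where 24.6% of all genes fell. The adjusted p-values beside these bounds are those of the limma fit on the signals. Cd68 was not above background at 0 h and Tek was not at 72 h. Each passed the filter on dim probes only through other times, so these p-values and their place in the counts are no independent support. The part of these markers in the results was not tested, and fewer cells of a type cannot be told apart from less RNA per cell.

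The genes did not move as a group. At 6 h against 0 h, 6 of the 10 rose (Cyr61, Ctgf, Nov, Wisp1, Ankrd1 and Axl) and 2 fell (Wisp2 and Amotl2) at a limma adjusted p under 0.05. Over all 20839 genes 10.3% rose and 7.24% fell. At 24 h 5 rose and 3 fell, against 21.4% and 20.1% of all genes, and at 72 h 5 rose and 2 fell, against 27.5% and 24.6%. The median log2 difference over the 10 was 0.38, 0.20 and 0.46 at 6, 24 and 72 h, where that over all genes was 0.005, -0.016 and 0.002. Between 6 and 24 h 3 rose and 5 fell (12.6% and 13.6% of all genes), and between 24 and 72 h 4 rose and 2 fell (10.8% and 10.9%). These counts include Nov as a riser at 6, 24 and 72 h and from 6 to 24 h, and the medians include it too. At 6 h it was not above background at either time. It passed the filter on dim probes only through 24 and 72 h, where it was high, so its part in the later counts is no independent support. Without 6 h replicate 2, 1 of the 10 fell at 6 h and 3 fell from 6 to 24 h. From 24 to 72 h, 1 or 2 rose without either 6 h array, 24 h replicate 1 or either 72 h array, and 1 fell without either 72 h array. When arrays were scaled by their median, which put the median of all genes at 0.13 at 24 h and 0.18 at 72 h, 1 of the 10 fell in each comparison with 0 h. The share of calls that were higher, among the 10 and among all genes, was 75% and 58.8% at 6 h, 62.5% and 51.5% at 24 h, and 71.4% and 52.7% at 72 h. Median scaling put it at 85.7% and 76.9%, 83.3% and 74.7%, and 85.7% and 75.1%. Quantile normalization put it at 71.4% and 46.9%, 55.6% and 48.4%, and 55.6% and 51.7%.

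**Figure D1:**
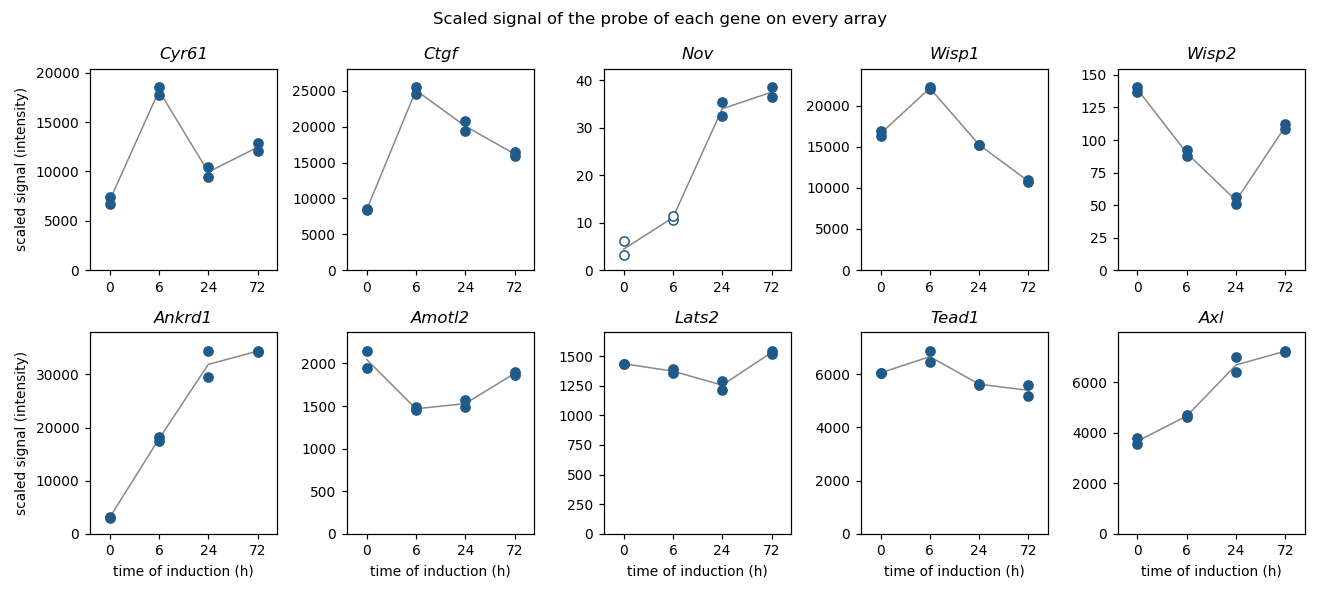
Scaled signal (linear intensity, axes from 0, 1 scale per gene) of the probe that stood for each of the 10 genes against time of induction in hours (times evenly spaced, not to scale), 1 point per array and a line through the means of 2 arrays. Open points were not well above background. Ankrd1 climbs from 3042 to 3070 at 0 h to 29491 to 34493 at 24 h and stays there, Cyr61, Ctgf and Wisp1 are highest at 6 h, Wisp2 is lowest at 24 h, and Lats2 and Tead1 stay near their 0 h level.

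Cyr61 and Ctgf (RefSeq symbols Ccn1 and Ccn2), secreted proteins that link integrins to matrix and growth factors, both peaked at 6 h and were still raised at 72 h. Cyr61, read by a probe at chr3:145310187-145310246 (mm9), gave signals of 6693 and 7427 at 0 h, 18568 and 17795 at 6 h, 9465 and 10433 at 24 h, and 12871 and 12036 at 72 h. The ranges of the 4 times did not overlap. The rise was 2.58-fold at 6 h (log2 difference 1.37 ± 0.08 SE, adjusted p 0.000697), 1.41-fold at 24 h (0.50 ± 0.08, adjusted p 0.00493) and 1.77-fold at 72 h (0.82 ± 0.08, adjusted p 0.000559). The signal fell by 0.87 ± 0.08 from 6 to 24 h (adjusted p 0.00195) and then rose by 0.32 ± 0.08 (adjusted p 0.0387). That second rise lost its call without any 1 of 5 arrays (both 6 h arrays, 24 h replicate 1 and both 72 h arrays, adjusted p 0.0688 to 0.166) and in 3 other settings (0.0527 to 0.148).

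Ctgf, at chr10:24318281-24318340 (mm9), was at 8353 and 8460 at 0 h, 24624 and 25571 at 6 h, 19403 and 20791 at 24 h, and 16517 and 15904 at 72 h. All 6 induced arrays were above both 0 h arrays and the signal stepped down from 6 to 24 to 72 h with no overlap. The rise was 2.99-fold at 6 h (1.58 ± 0.05, adjusted p 0.000112), 2.39-fold at 24 h and 1.93-fold at 72 h (0.95 ± 0.05, adjusted p 0.000102). The steps down of 0.32 ± 0.05 (adjusted p 0.0105) and 0.31 ± 0.05 (adjusted p 0.0155) were smaller than the rise. The first lost its call without 6 h replicate 2 (adjusted p 0.0632) and the second without 72 h replicate 1 or replicate 2 (0.0668 to 0.0869), and both lost it under median scaling (0.0725 and 0.0548).

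The other CCN genes each took a different course. Nov (Ccn3, probe at chr15:54584204-54584263, mm9), a family member often described as opposing Ctgf, appeared late. It was not well above background at 0 h (6.04 and 3.21) or at 6 h (10.6 and 11.4) and was above it at 24 h (35.5 and 32.5) and 72 h (36.4 and 38.6). The 4 later arrays lay above the 4 earlier ones. Against the limit set by the dimmest probes that were above background, Nov was at least 2.54-fold higher at 24 h and at least 2.80-fold higher at 72 h than at 0 h. At 6 h its own signals, though not well above background, exceeded that limit, and against them it was 3.08-fold higher at 24 h (1.62, adjusted p 0.0114; 0.38 after normexp correction). That call was lost without 6 h replicate 1, 6 h replicate 2 or 24 h replicate 1 (adjusted p 0.0511 to 0.0607). The difference between 24 and 72 h was 0.14 (95% interval -0.55 to 0.83). The fitted log2 differences of Nov from 0 h were 2.95 at 24 h (adjusted p 0.000816) and 3.09 at 72 h (adjusted p 0.000436). They depended on the treatment of background and were 0.55 and 0.63 after normexp correction. Nov passed the filter on dim probes only through 24 and 72 h, where it was high, so these p-values are no independent support for its rise. At 6 h the fit gave an adjusted p of 0.0286 with both times below background, so no fold is given, and 11 of 18 alternatives lost that call.

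Wisp1 (Ccn4), a Wnt-induced member of the family, rose first and then fell below its start. Its probe at chr15:66754637-66754696 (mm9) gave 16292 and 16902 at 0 h, 22279 and 21981 at 6 h, 15239 and 15226 at 24 h, and 10679 and 10925 at 72 h. No 2 times overlapped. It was 1.33-fold higher at 6 h (0.42 ± 0.04, adjusted p 0.0041) and 1.54-fold lower at 72 h (-0.62 ± 0.04, adjusted p 0.000188) than at 0 h. At 24 h the difference of -0.12 did not pass (adjusted p 0.0662, 95% interval -0.23 to -0.02). A second probe, at chr15:66750958-66751017, followed the same course: 5814 and 6161, then 8319 and 8452, then 6307 and 6164, then 4286 and 4550. Its differences from 0 h were 0.49 at 6 h, 0.06 at 24 h and -0.44 at 72 h, the first and the last past the threshold. Quantile normalization left the 6 h rise of the first probe at 0.27.

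Wisp2 (Ccn5), the member that lacks the C-terminal domain of the family, fell to 24 h and then partly returned. At chr2:163658717-163658776 (mm9) its signals were 141 and 137 at 0 h, 92.2 and 87.7 at 6 h, 50.8 and 56.3 at 24 h, and 112 and 109 at 72 h. Both replicates of each time were apart from those of every other time. It was 1.54-fold lower at 6 h (-0.63 ± 0.07, adjusted p 0.00412), 2.60-fold lower at 24 h (-1.38 ± 0.07, adjusted p 0.000145), and then rose 2.07-fold by 72 h (1.05 ± 0.07, adjusted p 0.00161). It remained 1.26-fold below 0 h at 72 h (-0.33 ± 0.07, adjusted p 0.00805), a call that median scaling ended (-0.15, adjusted p 0.202). With normexp correction the falls were -0.39 at 6 h and -0.79 at 24 h and the return 0.57. Of the remaining family member, Ccn6 (Wisp3), no array gave a signal well above background.

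Ankrd1 had the largest fitted rise of the 10 genes at each time against 0 h. Its probe at chr19:36186809-36186868 (mm9) read 3070 and 3042 at 0 h, 17447 and 18305 at 6 h, 29491 and 34493 at 24 h, and 34490 and 34306 at 72 h. Times were apart up to 24 h, and the 72 h arrays lay within the range of those at 24 h. The gene was 5.85-fold higher at 6 h (2.55 ± 0.08, adjusted p 8.21e-05), 10.4-fold at 24 h (3.38 ± 0.08, adjusted p 3.52e-05) and 11.3-fold at 72 h (3.49 ± 0.08, adjusted p 1.89e-05). It rose a further 1.78-fold from 6 to 24 h (adjusted p 0.00217), and from 24 to 72 h the difference was 0.11 (adjusted p 0.373, 95% interval -0.09 to 0.31). Ankrd1 is a marker of heart and muscle as well. Beside its rise, the summed signal of the 9 muscle markers was above its 0 h range at 6, 24 and 72 h and Tnnt2 rose at 24 h (0.85), while Myod1, Myog, Ckm, Myh3 and Actn2 were above background on no array. Of the 3 muscle markers tested, 2 were not called at 24 h (lowest difference -0.54). At 6 and 72 h 0 of the 3 were called, with a lowest difference of -1.58 at 72 h. Their part in the rise was not tested.

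Axl, a receptor of the TAM family bound by the ligand Gas6, rose more slowly. Signals at chr7:26542541-26542600 (mm9) were 3539 and 3801 at 0 h, 4636 and 4708 at 6 h, 6406 and 6994 at 24 h, and 7263 and 7221 at 72 h. Each time lay wholly above the one before it. The gene was 1.27-fold higher at 6 h (0.35 ± 0.06, adjusted p 0.0177), 1.82-fold at 24 h (0.87 ± 0.06, adjusted p 0.000363) and 1.97-fold at 72 h (0.98 ± 0.06, adjusted p 0.000143). The step from 6 to 24 h was 0.52 ± 0.06 (adjusted p 0.00394), and that from 24 to 72 h was 0.11 (95% interval -0.04 to 0.27). The 6 h call was lost without 0 h replicate 1, 6 h replicate 1 or 6 h replicate 2 (adjusted p 0.0765 to 0.096).

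**Figure D2:**
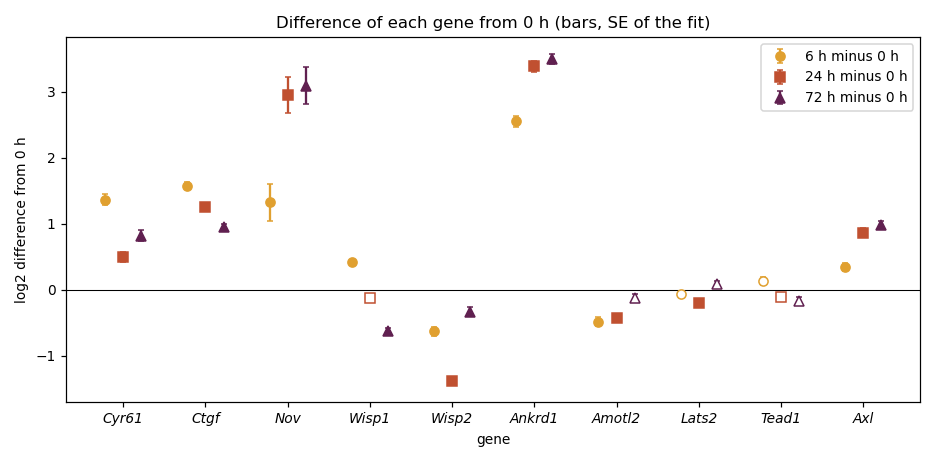
Log2 difference from 0 h (y axis) of each gene at 6 h (circles), 24 h (squares) and 72 h (triangles), with bars of 1 SE from the limma fit and filled symbols for an adjusted p under 0.05. Ankrd1 reaches 3.49, Wisp2 drops to -1.38 and Tead1 has no filled symbol. Nov was below background at 0 and 6 h, so its 6 h symbol is no measured fold and its later ones depend on the background.

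Amotl2, Lats2 and Tead1 act on YAP itself. Amotl2, an angiomotin that holds YAP at junctions, read 2151 and 1948 at 0 h, 1483 and 1452 at 6 h, 1491 and 1567 at 24 h, and 1898 and 1869 at 72 h (chr9:102635025-102635084, mm9). Its 6 and 24 h arrays lay below all others and its 72 h arrays below both 0 h arrays. It was 1.39-fold lower at 6 h (-0.48 ± 0.06, adjusted p 0.00725) and 1.34-fold lower at 24 h (-0.42 ± 0.06, adjusted p 0.00366), and at 72 h the difference of -0.12 did not pass (adjusted p 0.156, 95% interval -0.27 to 0.03). Both falls missed the threshold under median scaling (-0.43, adjusted p 0.0512, and -0.27, adjusted p 0.0835), and the 6 h one without 6 h replicate 2 (adjusted p 0.0516). The rise of 0.30 from 24 to 72 h (adjusted p 0.0244) was lost without either 6 h array, 24 h replicate 1 or either 72 h array (0.051 to 0.115).

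Lats2, one of the kinases that phosphorylate YAP, was read by 2 probes that differed at 72 h. The brighter one, at chr14:58308807-58308866 (mm9, transcript NM_015771), gave 1436 and 1435 at 0 h, 1389 and 1357 at 6 h, 1217 and 1293 at 24 h, and 1514 and 1547 at 72 h. Its differences from 0 h were -0.06 at 6 h, -0.19 at 24 h (adjusted p 0.0227) and 0.09 at 72 h (adjusted p 0.161), and it rose by 0.29 from 24 to 72 h (adjusted p 0.0142). The 24 h fall was lost under median scaling (-0.05) and without 0 h replicate 1, 0 h replicate 2 or 24 h replicate 1 (adjusted p 0.0773 to 0.0837), and the later rise without 24 h replicate 1 or either 72 h array (0.0551 to 0.0819). The second probe, at chr14:58341225-58341284 (transcript NM_153382), read 182 and 178, 171 and 166, 157 and 187, then 265 and 265. It stayed near its start to 24 h and was higher on both 72 h arrays (0.56 ± 0.09, adjusted p 0.00343). The ratio of the second probe to the first rose by 0.48 and 0.45 on the log2 scale on the 72 h arrays, and lay between -0.03 and 0.20 on the 6 and 24 h arrays.

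Tead1, the DNA-binding partner of YAP, had 3 probes with 3 courses. The brightest, at chr7:120049844-120049903 (mm9), read 6041 and 6047 at 0 h, 6883 and 6435 at 6 h, 5594 and 5646 at 24 h, and 5186 and 5601 at 72 h. None of its differences from 0 h passed: they were 0.14 (95% interval -0.01 to 0.28), -0.11 (-0.25 to 0.04) and -0.17 (-0.31 to -0.02). Its fall of 0.24 from 6 to 24 h (adjusted p 0.0313) was lost when any 1 of the 0, 6 or 24 h arrays was left out (adjusted p 0.0569 to 0.143). A second probe, at chr7:120042204-120042263, rose from 41.0 and 39.6 at 0 h to 65.1 and 54.1 at 6 h, 48.0 and 51.0 at 24 h, and 73.1 and 75.1 at 72 h. The rise passed at 6 h (0.56 ± 0.10, adjusted p 0.0186) and, larger, at 72 h (0.88 ± 0.10, adjusted p 0.000949). The dimmest, at chr7:120043445-120043504, was above background on 3 arrays only, with 16.7 and 17.5 at 0 h and 16.9 on 1 of the 6 h arrays. It was at least 1.27-fold lower at 24 h and at least 1.47-fold lower at 72 h. The fit on its signals gave -0.39 at 24 h (adjusted p 0.0287) and -0.96 at 72 h (adjusted p 0.000885), with signals below background at both. The probe passed the filter only through 0 h, where it was brightest, so these p-values are no independent support for a fall. The difference between probes was not tested, and exons or untranslated regions of the mm9 positions were not analysed here.

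**Figure D3:**
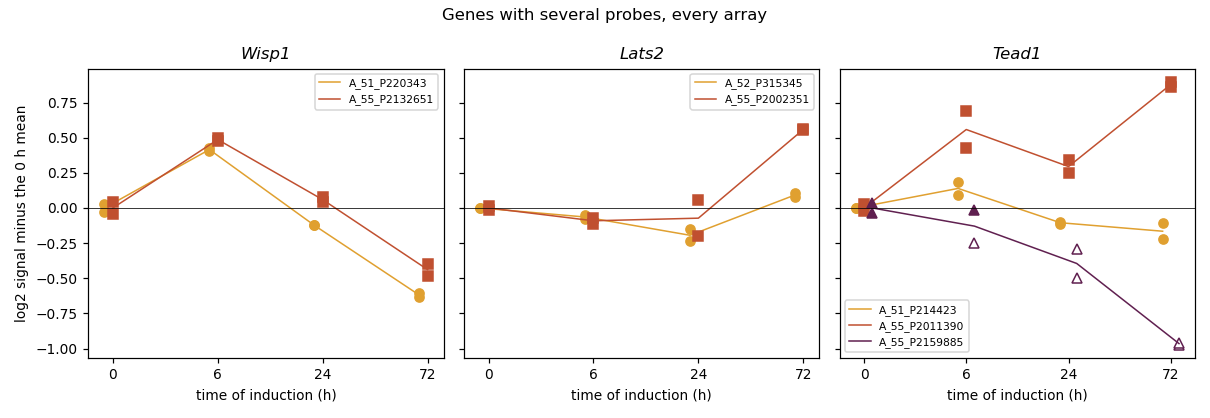
Log2 signal minus the 0 h mean (y axis) of each probe of the 3 genes with several probes, 1 point per array and lines through the means of 2 arrays, against time of induction in hours (evenly spaced, not to scale). Open points were not well above background. The 2 Wisp1 probes run together, the Lats2 probes part at 72 h (0.09 and 0.56), and the Tead1 probes spread to -0.17, 0.88 and -0.96.

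The transcripts of YAP, TAZ and the TEAD factors other than Tead1 stayed within 0.51 of 0 h on the log2 scale. Yap1 read 5983 and 6843 at 0 h, 7762 and 7925 at 6 h, 5095 and 7700 at 24 h, and 6873 and 7475 at 72 h. Its 24 h arrays were far apart and spanned the 0 h range. The differences of 0.29, -0.03 and 0.16 (each ± 0.19) did not pass, with 95% intervals of -0.18 to 0.77, -0.51 to 0.45 and -0.31 to 0.64. They did not pass in any of the 19 alternatives either. Wwtr1, which encodes TAZ, declined at the later times: 3142 and 3005, 3259 and 3207, 2527 and 2401, then 2148 and 2170. It fell by 0.32 ± 0.05 at 24 h (adjusted p 0.00414) and by 0.51 ± 0.05 at 72 h (adjusted p 0.000535). Median scaling ended the first call (-0.17, adjusted p 0.226) and left the second at -0.33.

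Vgll2, a cofactor of TEAD best known from muscle, rose from 114 and 120 at 0 h to 145 and 168, 226 and 273, then 305 and 298, with no overlap between times. The difference was 1.09 ± 0.11 at 24 h (adjusted p 0.00108) and 1.37 ± 0.11 at 72 h (adjusted p 0.000312), and 0.42 at 6 h missed the threshold (adjusted p 0.0557), which 8 of 19 alternatives passed. Vgll4, a cofactor that competes with YAP for TEAD, was higher at 6 h (0.49 ± 0.11, adjusted p 0.0384), and it was 0.01 and -0.03 at 24 and 72 h. Its 6 h difference missed the threshold in 10 of 19 alternatives, among them without either array of 0, 6 or 72 h (0.0732 to 0.151). Of the other TEAD genes, Tead2 did not pass at any time (-0.06, -0.05 and 0.16), Tead3 was -0.39 at 72 h (adjusted p 0.0136) and Tead4 0.32 (adjusted p 0.032). The Tead3 call was lost without 0 h replicate 1 or 72 h replicate 1 (0.0646 to 0.0689) and that of Tead4 without any of 5 arrays, either 0 or 6 h array or 72 h replicate 1 (0.0524 to 0.112). Vgll3 was on the array and did not pass the filter on dim probes.

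Of 20 Hippo kinases and scaffolds 19 were tested. At 6 h 3 rose and 3 fell, at 24 h 7 rose and 5 fell, and at 72 h 7 rose and 5 fell, with medians of 0.09, 0.04 and 0.12. Over all genes 10.3% rose and 7.24% fell at 6 h, 21.4% and 20.1% at 24 h, and 27.5% and 24.6% at 72 h. Under median scaling 0 of the 19 fell at any of these times. The counts also moved with single arrays: without either 0 or either 6 h array 0 fell at 6 h, without 0 h replicate 1 or either 6 h array 1 rose then, without either 0 h array 3 fell at 24 h and without 0 h replicate 2 4 rose, and without 72 h replicate 1 4 rose and 3 fell at 72 h (3 fell also without 0 h replicate 1). Amotl1, the angiomotin paralog of Amotl2, went the other way from Amotl2. Its signals were 111 and 116 at 0 h, 173 and 167 at 6 h, 243 and 221 at 24 h, and 268 and 257 at 72 h, a rise of 1.49-, 2.03- and 2.31-fold (1.21 ± 0.06 at 72 h, adjusted p 8.42e-05). Lats1, the paralog of Lats2, read 76.4 and 78.3 at 0 h, 87.7 and 89.9 at 6 h, 94.4 and 106 at 24 h, and 163 and 154 at 72 h. It was 2.05-fold higher at 72 h (1.04 ± 0.07, adjusted p 0.000178) with no overlap between any 2 times. With normexp correction the 72 h differences were 0.79 for Amotl1 and 0.65 for Lats1. Rassf1, a scaffold of the MST kinases, rose by 0.64 ± 0.06 at 72 h (adjusted p 0.000476).

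Of 16 other genes of published YAP signatures, 5 were higher and 4 lower at 6 h, 8 and 6 at 24 h, and 6 and 7 at 72 h. Their medians were 0.05, 0.27 and -0.01. Called genes lay in both directions over all genes too, with 10.3% higher and 7.24% lower at 6 h, 21.4% and 20.1% at 24 h, and 27.5% and 24.6% at 72 h. At 6 h, 2 rose without 6 h replicate 2, and 0 to 2 fell without any 1 array of 0, 6 or 72 h. F3, the gene of tissue factor, had an early peak as Cyr61 did: 1290 and 1262 at 0 h, 5787 and 6093 at 6 h, 2813 and 2730 at 24 h, 2395 and 2415 at 72 h. It was 4.66-fold higher at 6 h (2.22 ± 0.05, adjusted p 3.65e-05) and 1.89-fold at 72 h. Ccdc80, a matrix protein gene, held its level at 6 h (-0.02) and then dropped from 15583 and 15581 at 0 h to 3928 and 3394 at 24 h and 2225 and 2278 at 72 h, 6.92-fold lower (-2.79 ± 0.07, adjusted p 2.2e-05). Tgfb2, a TGF-beta ligand, read 1797 and 1827 at 0 h, 1564 and 1503 at 6 h, 672 and 522 at 24 h, and 288 and 283 at 72 h. Its 6 h difference of -0.24 did not pass (adjusted p 0.216), and it was lower at 24 h (-1.61 ± 0.12, adjusted p 0.000371) and 72 h (-2.67 ± 0.12, adjusted p 5.93e-05). Arhgef17 was -1.45 ± 0.07 at 72 h (adjusted p 6.95e-05).

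Among 13 receptors and ligands of CCN proteins and Axl, 4 rose and 1 fell at 6 h, 5 and 5 at 24 h, and 3 and 7 at 72 h, with a median of -0.22 at the last. Over all genes the shares were 10.3% and 7.24%, 21.4% and 20.1%, and 27.5% and 24.6%. At 6 h, 2 rose without 0 h replicate 1 and 1 without 6 h replicate 2, and 0 fell without 0 h replicate 1 or 6 h replicate 1. At 24 h, 3 rose without either 0 h array and 2 without 24 h replicate 2, and 3 fell without 0 h replicate 1 or either 24 h array. Gas6, the ligand of Axl, moved against its receptor: 96.9 and 104.8 at 0 h, 47.2 and 59.8 at 6 h, 14.6 and 20.7 at 24 h, and 7.17 and 21.4 at 72 h. Every induced array was below both 0 h arrays, 1 of the 72 h arrays was not above background, and the 72 h arrays differed more from each other than those of any other time. The fall was -2.54 ± 0.50 at 24 h (adjusted p 0.0104, lost without 24 h replicate 1 at 0.0534) and -3.03 ± 0.50 at 72 h (adjusted p 0.00417), and normexp correction gave -1.11 and -1.16. Mertk, another TAM receptor, was -1.12 ± 0.17 at 72 h (adjusted p 0.00288; -0.54 with normexp). Itga6, an integrin chain that binds Cyr61 and Ctgf, rose by 0.86 ± 0.05 at 72 h (adjusted p 8.91e-05). Itgb3, the beta chain of the vitronectin receptor that CCN proteins also bind, was 0.48 at 6 h and 0.40 at 24 h and fell to -0.94 ± 0.07 at 72 h (adjusted p 0.000188), with 233 and 241 at 0 h against 119 and 128 at 72 h.

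**Figure D4:**
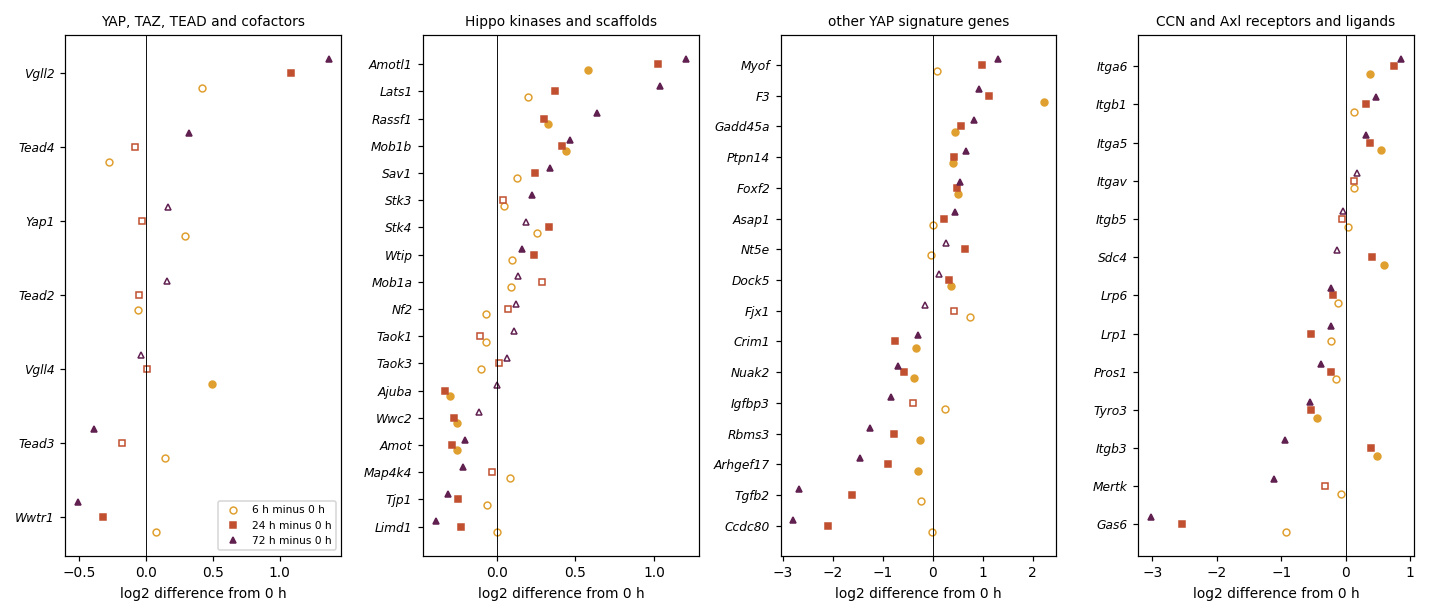
Log2 difference from 0 h (x axis) of the tested genes of the 4 pathway lists, 1 gene left out, with circles for 6 h, squares for 24 h and triangles for 72 h, filled where the limma adjusted p was under 0.05, and genes ordered by their 72 h value. All 4 panels hold genes on both sides of 0, from Gas6 at -3.03 and Ccdc80 at -2.79 to Vgll2 at 1.37 and F3 at 2.22.

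To show which other transcripts ran closest to each gene, the 13070 other tested genes with a name were ranked by the root mean square difference of log2 levels over the 8 arrays, after the 0 h mean was subtracted. Cyr61 was closest to Hmox1 (0.10) and Srf (0.15), Ctgf to Glipr1 (0.07) and Eva1c (0.12), and Ankrd1 to Dusp4 (0.15) and Etv4 (0.23). Hmox1 encodes heme oxygenase, Srf serum response factor, Dusp4 a phosphatase of MAP kinases and Etv4 an ETS factor. Wisp1 was closest to Ubtd2 (0.05) and Rgs3 (0.08), Wisp2 to Celf5 (0.11) and Creb3l3 (0.19), and Axl to Cers2 (0.05) and Nsun2 (0.05). Amotl2 was closest to Zfp318 (0.03) and Pex11g (0.05) and Lats2 to Krit1 (0.03) and Arid1b (0.03), where small changes make many genes alike. The nearest to Nov, Cfap45 and Ptpre, were 0.31 and 0.34 away. Nov was well above background on only 4 of the 8 arrays and read 6.04 and 3.21 at 0 h, so its distances include noise near background. The distances describe 8 arrays at 4 times and were not tested.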

How the data were processed

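RNA was labelled with Cy3 and run on 1-colour Agilent 8x60K arrays, per the labels' protocols. Scans were quantified with Feature Extraction, version 10.5.1.1 on mm9 per the file headers and 10.7.3.1 per the submitters' processing notes. The deposited files give a processed intensity per spot on a linear scale, and the authors' value table holds the same intensity, rounded (largest difference 0.497%). Each log2 signal had the 75th percentile of the array's 59305 non-control spots subtracted (370 to 393 across arrays). Outlier spots were left out and spots of a probe averaged. Probes well above background on both arrays of at least 1 time were kept (28609 of 55681), and the brightest stood for its gene. Of all probes 26582 were named by RefSeq accession, 2602 by symbol, 492 by synonym and 26005 by the file. With no depth in arrays, their number limits the precision.

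Differences were tested with limma 3.58.1 (R 4.3.3): 4 means on 8 arrays (4 residual and 1.7 prior degrees of freedom), Benjamini-Hochberg adjustment over 20839 genes, threshold 0.05. All 5 comparisons share arrays: those with 0 h share its controls. A gene below background on both arrays of a time has a bound, the higher of each array's lowest signal well above background and its own signal. An adjusted p beside a bound comes from the fit on the signals and does not test the bound. On data simulated for 6 h against 0 h over 20839 genes, calls reached 18.8% of 1.25-fold, 53.2% of 1.5-fold, 76.8% of 2-fold and 91% of 4-fold changes, and 0.0315% of unchanged genes. The simulation changed a far smaller share of genes than the 17.6% called at 6 h in the data. The adjustment depends on that share, so these rates are not those of the comparisons reported here. Named are all 10 genes with every probe, Src and Csk, each tested gene of the YAP, TAZ and TEAD list, up to 4 called genes with the largest difference from each other pathway list, and the 2 genes nearest in course to each called gene; Ccn6 and the list markers came outside this rule. The values of 1 gene that the rule names are not reported here. The 10 genes and all lists were chosen with earlier results of these data known. Promoter windows came from RefSeq (GRCm38.p6). Files were read with jsonlite 2.0.0 and the package data.table (1.17.8), figures drawn with Python 3.11.15 and matplotlib 3.10.9. The 19 alternatives covered scaling, background, filters, the floor, the block, the fit, the probe rule and leaving out each array.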

Additional observations from a re-analysis of the deposited data

How the results depend on the processing

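With 2 arrays per time, 19 alternatives gave 945 differences for the 10 genes (Nov drops out when every array must be above background). Of these, 868 stayed on the same side of the threshold, 69 lost their call and 8 gained one. Where the main fit or the alternative made a call, 0 reversed direction. Differences called in neither could change sign and count among the 868, as that of Tead1 at 24 h did (-0.17 to 0.04). The other named genes gave 1895, with 1732, 133, 30 and 0 by the same rule. The rises of Cyr61, Ctgf and Ankrd1 against 0 h kept their call in all 19 at each time. Counts of the 10 that moved, with the main value first, were as follows. Median scaling gave 1 lower for 2 at 6 h, 1 for 3 at 24 h, 1 for 2 at 72 h, 3 for 5 from 6 to 24 h and 1 for 2 from 24 to 72 h; quantile normalization gave 4 lower for 2 at 72 h. With no filter on dim probes, which tests more genes, 1 for 2 were lower at 6 h, 3 for 5 from 6 to 24 h, 1 for 2 from 24 to 72 h, and 1 for 4 higher there; fitting only the 2 times compared gave 3 for 5, 1 for 2 and 1 for 4. Leaving out 1 array gave 1 to 2 lower at 6 h, 3 to 5 lower from 6 to 24 h, and 1 to 4 higher and 1 to 2 lower from 24 to 72 h. Over all genes the alternatives ran from 648 to 2941 higher and 223 to 2040 lower at 6 h (2154 and 1508), 2937 to 6043 and 2052 to 5273 at 24 h (4451 and 4197), 4096 to 8024 and 2664 to 6745 at 72 h (5721 and 5125), 779 to 3280 and 1266 to 3379 from 6 to 24 h (2621 and 2832), and 346 to 3032 and 583 to 2863 from 24 to 72 h (2250 and 2262). Called pathway genes, higher and lower, ran from 4 to 10 and 0 to 6 for Hippo at 72 h, 6 to 8 and 5 to 7 for the YAP signatures, and 2 to 4 and 4 to 7 for receptors and ligands. Same-numbered arrays deviated together weakly (r 0.056 to 0.171 over 6 pairs of times, all positive, so each correlates best with its own number), and the number follows the slide column; with it as a block, 2408 rose and 1663 fell at 6 h and 6000 and 5397 at 72 h, and 6 and 2, 5 and 3, 5 and 2, 3 and 5, and 3 and 2 of the 10. The block ended the calls of Cyr61 from 24 to 72 h (adjusted p 0.0527), Vgll4 (0.058) and Arhgef17 (0.0577) at 6 h and Tead3 from 6 to 24 h (0.0576), and Vgll2 passed at 6 h (0.0364), Gas6 from 6 to 24 h (0.038) and Tead2 from 24 to 72 h (0.0461). The cause of these changes was not tested.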
